A study of Mus musculus with 3 samples.

Results

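The genes described here are the 8 GATA and FOG family genes of the mouse, Gata1 to Gata6, Zfpm1 and Zfpm2, set against a map of the chromatin bound by FOG2 in the heart ventricles of embryos at E12.5 (days of gestation). A gene was given every FOG2 peak whose summit, its highest point, lay nearer to that gene's body than to the body of any other protein-coding gene and no more than 100 kb away. By this rule 18 of the 6166 peaks belonged to the family. They were shared by 4 of the 8 genes, and the other 4 genes had none.

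GATA factors are zinc finger proteins that bind DNA at the letters GATA and their flanks, and FOG proteins are cofactors that attach to a zinc finger of a GATA factor and raise or lower its activity, in part by bringing in the NuRD and CtBP corepressors. FOG2, the product of Zfpm2, is the partner of GATA4 in heart muscle, and mouse embryos without it die with malformed hearts and failed coronary vessel growth. FOG1, the product of Zfpm1, is the partner of GATA1 in red cell and platelet precursors. The map therefore shows where a cofactor sits at the genes that encode it, its relative and their DNA-binding partners.

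The series has 2 FOG2 pulldown libraries, taken as biological replicates, and 1 input library from the same kind of tissue. Per the labels' protocol, all came from mice carrying Fog2flbio on both copies of the gene, so that the FOG2 protein itself is tagged, together with BirA, a bacterial biotin ligase, on both copies of Rosa26. The ligase puts biotin on the tag and streptavidin beads recover the protein with its DNA, while the labels' genotype field says WT and their antibody field says FOG2 for the pulldown and none for the input. About 20 ventricles were pooled for each replicate, so a value describes a pool of embryos and of all ventricular cell types. The deposited peaks come from both pulldown libraries combined, and so no value below has a spread between replicates and no difference could be tested against one. All positions are on mm10.

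Each peak carries the authors' fold, a linear ratio of pulldown over control at the summit with 1 added to both sides. At such low counts it lies well below the plain ratio. A summit or peak called strongest is the one of highest fold. The median over all 6166 peaks was 6.39-fold. How many pulldown fragments covered a summit was worked out from its fold and −log10 p, and this count is given with an exact 95% Poisson interval that covers counting error only. The median summit rested on 12 fragments, and the thinnest summit on the list on 5. Differences in the share of cells bound and in binding per cell cannot be told apart in such bulk chromatin. Of the ventricular cardiomyocyte marker genes, 5 of 5 (Tnnt2, Myh7, Myl2, Myl3 and Actc1) had a FOG2 summit, as did 3 of 4 endocardium markers, where 13.6% of all protein-coding genes did. For blood markers it was 0 of 5, a number too small to tell from that share, and expression, which would check the tissue itself, was not measured. The 3 lists were, like the members, chosen with earlier results of these data known. They also differ in the stretch of genome nearest to their genes. At the mean density over all genes it would hold 0.451 summits for the cardiomyocyte markers, against 9 observed. For the endocardium markers it would hold 1.62, against 4, and for the blood markers 1.16, against 0.

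FOG2 peaks were found at both FOG genes and at 2 of the 3 GATA genes of the heart, Gata4 and Gata6, but not at Gata5, nor at the 3 GATA genes best known from blood and other tissues, Gata1, Gata2 and Gata3. Thus 4 of 8 family genes had a summit, where 13.6% of all 21631 protein-coding genes did. Each of the 4 had at least 3 summits, a number reached by 1.95% of protein-coding genes; this cutoff was chosen after the values were seen. The stretch of genome nearer to these 8 genes than to any other would hold 3.56 summits at the mean density over all genes, against the 18 observed.

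**Figure D1:**
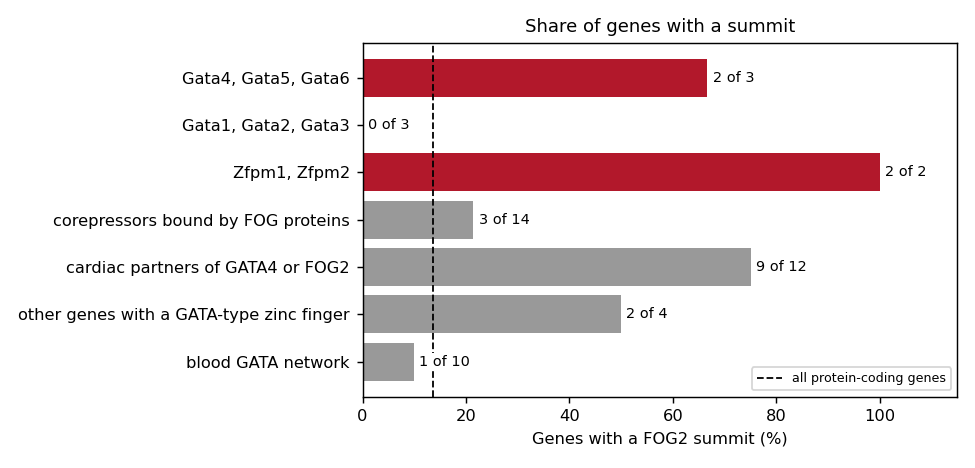
Horizontal bars give the percentage of genes with a FOG2 summit within 100 kb in the 3 groups of family genes (red) and in the 4 lists of partner genes (grey), with counts printed beside them. The dashed line marks the 13.6% of all protein-coding genes; Gata1, Gata2 and Gata3 have no bar because 0 of 3 had a summit.

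Among the DNA-binding members, Gata4 had 3 summits. Gata4, a regulator of heart muscle genes and of heart tube formation, spans 63198914 to 63271712 on chromosome 14. Its strongest peak lay inside the gene at 63255886 to 63256309, 15.5 kb from the higher-numbered end, at 7.66-fold with 13 fragments (95% interval 6.92 to 22.2). The peak at 63271434 to 63271820 straddled that same end, its summit 12 bp outside, at 5.31-fold with 14 fragments (7.65 to 23.5). The remaining peak lay 12.1 kb beyond the end, at 63283674 to 63283950, and reached 7.56-fold with 11 fragments (5.49 to 19.7). The 3 summits therefore stood at or around a single end of the gene, spaced 15.5 and 12.1 kb apart, and their intervals overlapped, so this depth gives them no detectable order. The middle peak had slightly more fragments but the lowest fold because its control level was higher, 1.83 against 0.828 and 0.588.

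More FOG2 peaks followed on the same side of Gata4. In the gap between Gata4 and Blk, a kinase gene of B cells, summits lay 67.1 and 97.3 kb from Gata4, at 8.42-fold (17 fragments, 9.90 to 27.2) and 7.65-fold (14 fragments, 7.65 to 23.5). Being nearer to Blk, at 34.0 and 3.87 kb, they were assigned to it, and both fell inside noncoding genes, Gm4151 for the former and Gm36165 with Gm46458 for the latter. Counting every summit within 100 kb, whichever gene is nearest, would give Gata4 5 in place of 3. On the other side of Gata4 the closest summits lay beyond the limit, at 131 and 137 kb, and were nearest to Defb42. They reached 7.58-fold (16 fragments, 9.15 to 26.0) and 9.82-fold (21 fragments, 13.0 to 32.1), the latter above any summit assigned to Gata4. Nearness alone leaves unknown which of the genes a bound site regulates.

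Gata6 had 5 summits, more than any other GATA gene by the rule used here. Gata6, a factor that overlaps with Gata4 in early heart formation and is known for its role in the outflow tract, spans 11052510 to 11085636 on chromosome 18. A pair of summits flanked its lower-numbered end. That at 11051570 lay 0.94 kb outside, within the noncoding neighbour Gata6os, at 6.54-fold with 15 fragments (8.40 to 24.7), and that at 11052990 lay 0.48 kb inside, at 7.67-fold with 16 fragments (9.15 to 26.0). A summit in the middle of the gene, at 11069606 and 51.6% of the way along it, was the strongest of the 5 at 8.02-fold with 13 fragments (6.92 to 22.2). Both remaining summits lay outside, 48.8 and 57.3 kb past the higher-numbered end, and were weaker, at 6.39-fold (12 fragments, 6.20 to 21.0) and 4.06-fold (8 fragments, 3.45 to 15.8). The last of these was the weakest of all 18 by fold, and 1.70% of all peaks had a lower one. Within 10 kb of the gene body, Gata6 kept 3 of its 5 summits. With summits assigned among genes of any biotype, it kept 4. Counting every summit within 100 kb, whichever gene is nearest, gave Gata6 5, as many as Gata4.

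The 100 kb limit mattered for Gata6. The nearest protein-coding gene remained Gata6 for 3 further summits, 146, 170 and 267 kb past its higher-numbered end, at 6.96-fold (11 fragments, 5.49 to 19.7), 11.8-fold (19 fragments, 11.4 to 29.7) and 4.74-fold (8 fragments, 3.45 to 15.8). The summit at 170 kb had a higher fold than any of the 18 counted here. On the other side, 268 kb away inside Mib1 and within Mir133a-1hg, the host gene of a muscle microRNA, stood a 22.1-fold peak with 60 fragments (45.8 to 77.2). With no limit on distance Gata6 would have 8 summits, Zfpm2 8 and Gata3 1.

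**Figure D2:**
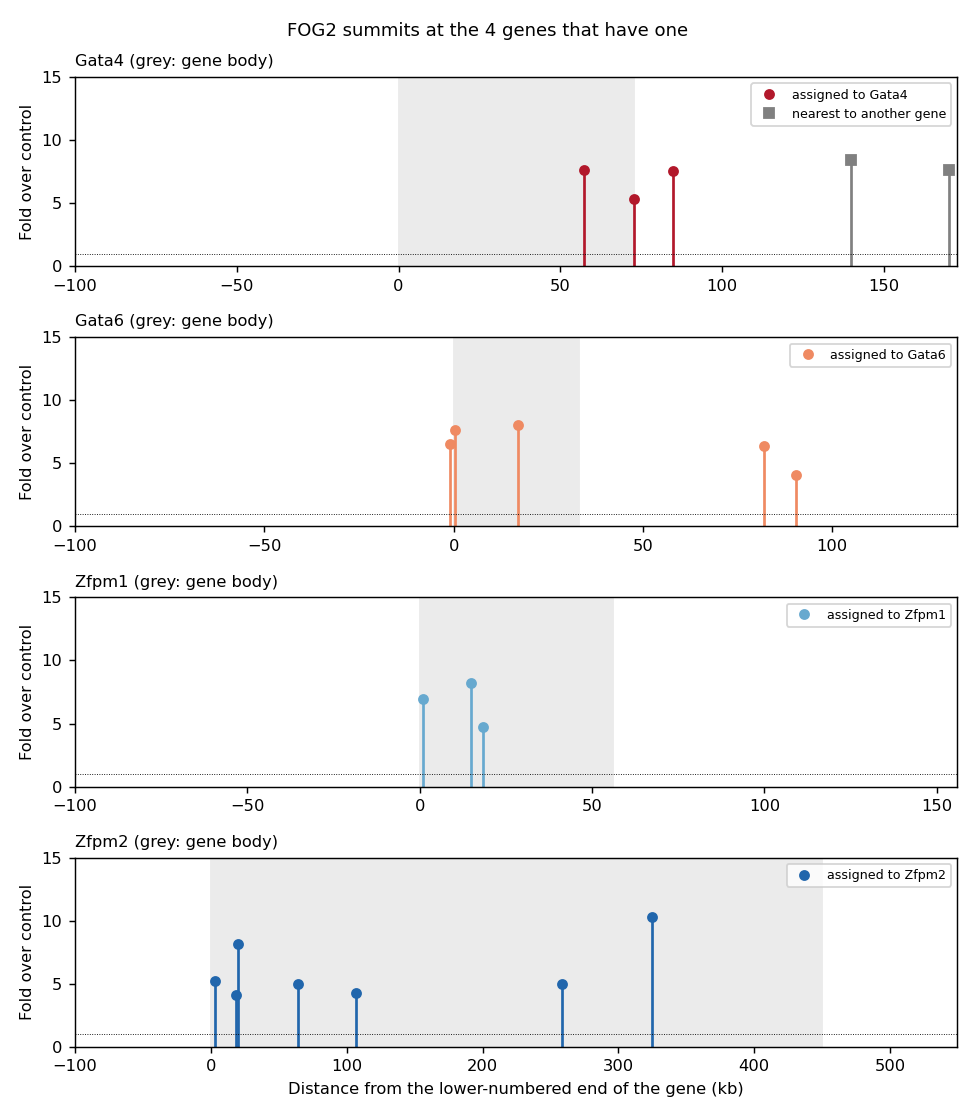
Each panel plots the fold over control (vertical axis, linear, dotted line at 1) of every summit against its distance in kb from the lower-numbered end of the gene, for Gata4, Gata6, Zfpm1 and Zfpm2, with the gene body shaded and the flanks drawn to 100 kb. Summits at Gata4 gather at the higher-numbered end, those at Zfpm1 toward the lower-numbered end, and those at Zfpm2 spread over the gene; grey squares are the 2 summits assigned to Blk.

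The FOG cofactor genes carried 10 of the 18 summits, all of them inside the gene bodies. Zfpm1, the gene of FOG1, spans 122281856 to 122337862 on chromosome 8 and had 3. The RefSeq promoter table places its start at 122282141 on the plus strand, so that the peak at 122282609 to 122283004 began 468 bp downstream of the start and had its summit at 720 bp, also inside the noncoding gene Gm39269. It reached 6.96-fold with 11 fragments (5.49 to 19.7). The strongest, 14.9 kb into the gene at 122296581 to 122296915, was 8.21-fold with 14 fragments (7.65 to 23.5), and 72.6% of all peaks had a lower fold. The remaining peak followed 3.43 kb further on, at 122300054 to 122300261, at 4.75-fold with 7 fragments (2.81 to 14.4), the fewest of any of the 18. All 3 lay in the first 32.7% of the gene, none lay outside it, and no other summit lay within 100 kb.

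Promoter sequence, 250 bases before to 50 after the start, was available from RefSeq (GRCm38.p6) for Gata1, Gata2 (with 2 windows), Gata3, Gata5 and Zfpm1. None of these 6 windows was crossed by a peak. Zfpm1, the only one of them with a summit close by, is shown with Gata3, the one window that holds a 6-letter GATA motif, and Gata5, the heart GATA gene without a peak. They are printed along the gene's own strand, and capitals mark the core GATA on either strand, or a whole motif, which is AGATAA, the variant AGATAG, the variant TGATAA or the variant TGATAG; the core lies inside each of the longer motifs. The windows are chr8:122281891-122282190 (plus strand) for Zfpm1, chr2:9878551-9878850 (minus strand) for Gata3 and chr2:180334630-180334929 (minus strand) for Gata5.
Zfpm1: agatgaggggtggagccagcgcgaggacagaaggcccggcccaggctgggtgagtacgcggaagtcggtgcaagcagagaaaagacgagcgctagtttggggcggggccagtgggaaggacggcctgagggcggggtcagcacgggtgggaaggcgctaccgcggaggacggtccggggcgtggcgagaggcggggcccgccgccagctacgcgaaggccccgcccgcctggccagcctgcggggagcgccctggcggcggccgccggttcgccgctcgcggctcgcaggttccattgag
Gata3: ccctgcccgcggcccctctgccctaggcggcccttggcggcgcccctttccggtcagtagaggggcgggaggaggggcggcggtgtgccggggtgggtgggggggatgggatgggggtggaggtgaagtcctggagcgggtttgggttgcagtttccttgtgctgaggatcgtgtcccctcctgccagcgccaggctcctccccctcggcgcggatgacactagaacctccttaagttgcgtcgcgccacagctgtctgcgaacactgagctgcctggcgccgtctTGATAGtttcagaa
Gata5: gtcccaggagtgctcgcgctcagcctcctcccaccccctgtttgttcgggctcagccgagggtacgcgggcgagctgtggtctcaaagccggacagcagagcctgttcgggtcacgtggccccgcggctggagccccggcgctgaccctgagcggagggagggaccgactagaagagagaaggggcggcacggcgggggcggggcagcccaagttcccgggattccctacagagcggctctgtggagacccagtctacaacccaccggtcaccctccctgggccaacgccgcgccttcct

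The Gata3 window holds TGATAG just downstream of its start site, the only match to the 4 motifs among the 6 windows, while 29.8% of all 32851 promoter windows held at least one of them. The core GATA was in 2 of the 6 windows, those of Gata3 and Gata1, and in 57.9% of all windows. The T-box letters GGTGTGA or the variant GGTGTTA, on either strand and with no overlap with the GATA motifs, were in 1 window, the more upstream one of Gata2, and in 5.52% of all windows. The family's windows were rich in G and C, with a median of 69.5% against 52.7% over all windows and 27.5 CpG dinucleotides against 7; the Gata1 window was the exception at 57.3% and 4. Just upstream of the Zfpm1 window, TGATAG starts at 122281706 in an overlapping promoter window of Gm39269. Neighbours of members without a peak had such motifs too, AGATAA and TGATAA for Gm52419 beside Gata1 and AGATAG for Gm38708 beside Gata2. The other windows of Gm39269 and Gm38708, and the neighbour windows beside Gata3 and Gata5, held none of the 6-letter motifs. The Zfpm1 window itself held neither a GATA core nor these T-box letters. The genome sequence under the peaks was not analysed here.

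Zfpm2, the gene of FOG2 itself and the one that carries the tag, had the most summits of the family. It spans 40655042 to 41104592 on chromosome 15, and all 7 of its summits were inside. The lower-numbered 23.7% of the gene held 5 of them, at 3.29, 18.5, 19.8, 63.8 and 107 kb from that end, with folds of 5.19, 4.08, 8.12, 4.96 and 4.26. They rested on 20 (12.2 to 30.9), 13 (6.92 to 22.2), 17 (9.90 to 27.2), 13 (6.92 to 22.2) and 9 (4.12 to 17.1) fragments. The other 2 stood further in, at 57.5% and 72.3% of the gene's length, and the last 125 kb held none.

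The peak at 72.3% of the way along Zfpm2, at 40979675 to 40980022, was the strongest of the family. It reached 10.3-fold with 28 fragments (18.6 to 40.5), and 83.9% of all peaks had a lower fold. Its interval lay above those of 4 of the other 17 summits of the family and overlapped those of 13. The neighbour at 57.5%, at 40913352 to 40913632, was 4.96-fold with 10 fragments (4.80 to 18.4). The widest peak of the family, 704 bp, was the one nearest the lower-numbered end of Zfpm2, at 40658167 to 40658870. It had the second most fragments, 20, but a fold of only 5.19, because the control level there was 3.04, the highest at any of the 18 summits. Control levels at Zfpm2 ran from 1.22 to 3.04, while those at Zfpm1 ran from 0.683 to 0.828. The median fold of the 7 summits of Zfpm2 was 4.96, beside 6.39 over all peaks. At a fold of at least 5, a cutoff below the lower quartile of all peaks (5.41), 3 of the 7 were left. At a −log10 q of at least 5, a cutoff below the median of all peaks (6.56), 3 were left. The stronger 50% of peaks by −log10 q also left 3, close to the 50% of all peaks kept by definition. With the nearest gene end in place of the nearest gene body, 4 summits were assigned to Zfpm2. One further summit with Zfpm2 as its nearest gene lay 246 kb outside, at 5.31-fold with 14 fragments (7.65 to 23.5).

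**Figure D3:**
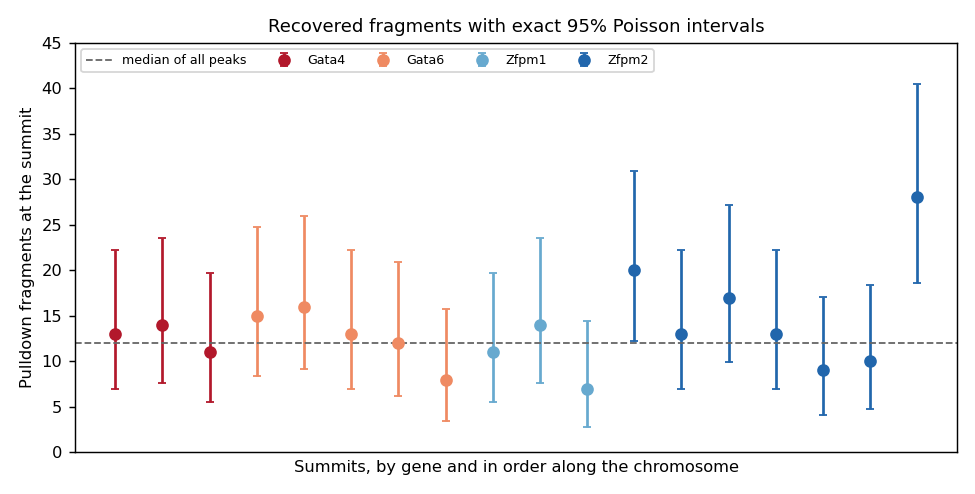
Points give the recovered number of pulldown fragments at each of the 18 summits, ordered along the chromosome within Gata4, Gata6, Zfpm1 and Zfpm2, with exact 95% Poisson intervals as bars, and the dashed line marks the median of 12 over all peaks. The summit at 28 fragments in Zfpm2 stands highest, and the 7 fragments at the last Zfpm1 summit are the fewest.

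The 4 family genes without a summit differed in how far the nearest one lay. Gata5, which is active in endocardium and epicardium, spans 180325088 to 180335503 on chromosome 2, and the nearest summit was 524 kb away, nearest to the cadherin gene Cdh4, at 4.94-fold with 7 fragments. For Gata3, a T cell regulator at 9857078 to 9887953 on chromosome 2, it was 429 kb away (6.02-fold, 9 fragments). For Gata2, a factor of blood stem cells and endothelium at 88193891 to 88207032 on chromosome 6, it was 94.3 kb away inside Eefsec, at 4.97-fold with 7 fragments (2.81 to 14.4). For Gata1, the master regulator of red cells at 7959260 to 7976663 on the X chromosome, it was 3959 kb away, nearest to Bcor (5.60-fold, 8 fragments). No peak number was missing from the deposited list in the stretches around any of the 8 genes, although 17 of 6183 numbers are missing from the list as a whole.

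A count of 0 at these genes has to be read beside their territories, which were 36 kb for Gata1, 65 for Gata2, 144 for Gata3 and 89 for Gata5. At the mean density over all genes, the stretch of genome nearest to each would hold 0.0907 summits for Gata1, 0.164 for Gata2, 0.363 for Gata3 and 0.224 for Gata5, and most genes of such size had none. A summit was assigned to 9.16% of the 7708 genes with a territory above 30 and up to 100 kb, the range of Gata1, Gata2, Gata5 and Zfpm1, and to 29.4% of the 4899 genes above 100 and up to 300 kb, the range of Gata3, Gata4 and Gata6. In the range of Zfpm2, above 300 and up to 1000 kb, it was 64.7% of 853 genes. The territories of the 4 genes with peaks were 125 kb for Gata4, 233 for Gata6, 70 for Zfpm1 and 650 for Zfpm2. That of Gata3 was thus larger than that of Gata4, and that of Gata5 larger than that of Zfpm1. Beside the number expected at the mean density, Gata4 had 3 summits to 0.315, Gata6 5 to 0.587, Zfpm1 3 to 0.176 and Zfpm2 7 to 1.64. With the density of each gene's own chromosome these values were 0.291, 0.709, 0.213 and 1.84. Among all protein-coding genes, 422 had 3 or more summits, 101 had 5 or more and 38 had 7 or more.

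**Figure D4:**
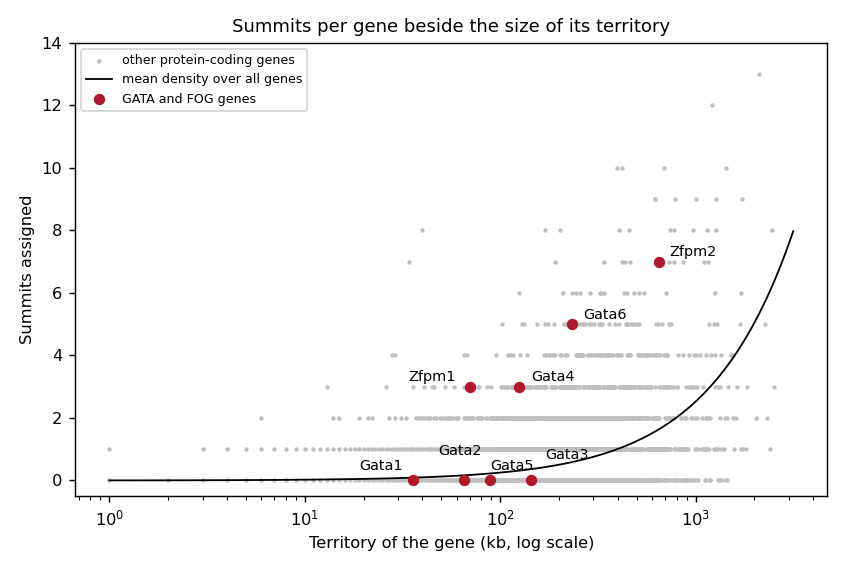
Each grey point is a protein-coding gene placed by its territory, the stretch of genome nearer to it than to any other gene (horizontal axis, kb, log scale), and by the number of summits assigned to it, with the GATA and FOG genes in red. The line is the number that the mean density over all genes would give; Zfpm2 (7), Gata6 (5), Gata4 (3) and Zfpm1 (3) lie above it, and Gata1, Gata2, Gata3 and Gata5 lie at 0. Genes whose territory covers no grid point are not drawn.

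The family's peaks lay in the middle of the list in strength. Their folds ran from 4.06 to 10.3 with a median of 6.46, beside 6.39 for the whole list, and 9 of 18 exceeded the median of the whole list. One of the 18 reached 10-fold (5.56%), as did 1039 of all peaks (16.9%). Fragments ran from 7 to 28 with a median of 13, and 4 of 18 summits rested on 10 or fewer (22.2%), as did 39.4% of all peaks. The control level at the summit had a median of 1.22 at family summits and 0.828 over all peaks; its part in the folds was not tested.

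Of the family's 18 summits, 13 (72.2%) lay in the body of the gene they were assigned to. So did 60.2% of the 4702 peaks with any protein-coding gene within 100 kb. Zfpm2, the longest of the 8 genes at 450 kb, held 7 of the 13, Zfpm1 3, Gata6 2 and Gata4 1. Within 1 kb of an end of their gene lay 3 (16.7%), at Gata4 and Gata6, beside 4.23% of those 4702 peaks. Another summit stood within 10 kb of 8 of the 18 (44.4%), beside 18.1% of those peaks. These were 4 pairs. Those assigned to Gata6 were 1.42 kb apart, across its lower-numbered end, and 8.48 kb apart, outside the gene, and those inside Zfpm1 and Zfpm2 were 3.43 and 1.33 kb apart. Summits of the same gene share a locus and are not independent of each other, and these shares are descriptions with no test.

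Among the genes that work with GATA and FOG proteins, most of the cardiac partners had a peak within 100 kb. Of 12 cardiac partners of GATA4 or FOG2, 9 had a summit, as against 13.6% of all protein-coding genes. This list was chosen with earlier results of these data known, so its share is a description and not independent support. The highest folds were at Nkx2-5, a heart homeobox factor that binds GATA4 (22.1-fold, 44 fragments, 32.0 to 59.1, 3 summits), at Nr2f2, a nuclear receptor of atrial and venous cells known to bind FOG2 (20.5-fold, 32 fragments, 21.9 to 45.2), at Tbx5 (8.70-fold, 14 fragments) and at Hand2, a basic helix-loop-helix factor of the right ventricle (8.02-fold, 12 fragments, 5 summits). The summits of highest fold lay outside these genes, 23.9 kb from Nkx2-5, 39.2 from Nr2f2, 22.8 from Tbx5 and 75.4 from Hand2. The intervals of the Nkx2-5 and Nr2f2 summits overlapped that of the strongest Zfpm2 summit. Nfatc4, Smad4 and Klf13 had none. With the limit at 10 kb, 6 of the 12 had a summit, beside 10.0% of all protein-coding genes. With summits assigned among genes of any biotype, 6 of the 12 had one, beside 10.5%.

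Of 14 genes of the NuRD and CtBP corepressors, 3 had a summit (21.4%, beside 13.6% of all protein-coding genes). They were Mta1, a NuRD subunit (19.5-fold, 66 fragments, 51.0 to 84.0, 0.779 kb outside the gene), Chd4, the NuRD helicase (10.1-fold, 15 fragments), and Ctbp2 (7.31-fold, 11 fragments). A list of 4 other genes whose proteins carry a GATA-type zinc finger was also taken, which is not a full set of such genes. Of these 4, 2 had a summit (50%, beside 13.6% of all protein-coding genes). They were Trps1 (6.32-fold, 13 fragments, 3 summits) and Rere (4.95-fold, 16 fragments), and Gatad1 and Zglp1 had none. At the mean density the territory of Trps1 would hold 1.10 summits and that of Rere 0.910. Of 10 genes of the blood GATA network, 1 had a summit (10.0%, close to the 13.6% of all protein-coding genes), Runx1, with 4 summits and a highest fold of 16.2 (25 fragments, 16.2 to 36.9). The strongest Runx1 summit lay 97.9 kb outside the gene, close to the 100 kb limit. Tal1, Lmo2, Ldb1, Klf1, Fli1, Gfi1b, Nfe2, Epor and Alas2 had none. The territories of these 10 genes would hold 2.02 summits at the mean density, against 4 observed. Those of the 4 zinc finger genes would hold 2.08, against 4 observed. For the corepressors it was 2.87 against 5, and for the cardiac partners 4.99 against 20. All of these lists were chosen with earlier results of these data known, and the difference between them was not tested.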

How the data were processed

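The authors deposited a single list of FOG2 peaks from both pulldown libraries combined, filtered against blacklisted regions, per the deposited names, which also carry the word FLAG. The submitters' processing notes list Bowtie2 2.3.2, SAMtools 1.5, Picard, MACS2 2.1.1 and the build mm10; their settings: not given in the sources used here. Of the deposited columns, the fold compares pulldown with control as a linear ratio with 1 added to both sides, and the −log10 p and −log10 q belong to the summit. A deposited display score repeats 10 times the −log10 q, cut to its whole part, and was left aside.

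Fragments were solved as the whole number whose Poisson tail and fold, with 1 added to both sides, gave the deposited −log10 p. This matched 100% of peaks within 0.001, and 83 had another match. Checked on data simulated with the same formula, the step returned the true number at 996 of 996 summits. This checks the solving only, and cannot show whether the deposited columns follow that formula. The fragments were computed in Python 3.11.15 with SciPy 1.17.1. Library totals are not given in the list, so the depth per sample is unknown.

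Gene bodies came from a RefSeq table of GRCm38.p6 without strand. Territory was measured on a 1 kb grid, within 100 kb. All 8 members are named with every summit, and in every partner list at most the 4 genes with the highest folds. The members and lists were chosen with earlier results of these data known. No protein or peak sequence was analysed, and 10 other settings were planned and 2 added after seeing the data.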

Additional observations from a re-analysis of the deposited data

How the results depend on the processing

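The number of family genes with a summit was 4 in 10 of the 12 other settings and 5 in the other 2, where Gata2 entered when every summit within 100 kb was counted and Gata3 when no distance limit was set. The number of family summits ranged from 10 in the stronger 50% of peaks to 23 with no distance limit. The median fold at these summits ranged from 6.39 to 7.66. Cutoffs on fold, −log10 q or fragments keep the stronger peaks, so a higher median follows from the cutoff itself. The 95% binomial interval of the median, 4.96 to 7.67, treats summits as independent, which those of a single gene are not. It is therefore no measure of how stable the median is. Of the 4 listed genes with a GATA-type zinc finger outside the family, 1 had a summit at a fold of at least 5, and 1 in the stronger 50% of peaks. With the core GATA in place of the 6-letter motifs, 2 promoter windows matched in place of 1. Excluding summits of 10 or fewer fragments and lifting the distance limit were chosen after seeing the data. Motifs around summits were not run. No paired analysis was possible because the replicates were pooled before deposit. Depth limits single summits, most of whose counting intervals overlap.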
